A study of Mus musculus with 21 samples.

Results

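Collagens are the trimeric proteins that build the fibers, sheets and anchoring threads of the extracellular matrix, and their genes carry symbols of the form Col, a type number, a and a chain number. Every non-control probe with a gene symbol of that form was considered, and the probe with the highest mean signal stood for its gene. This gave 43 collagen genes on each of the array designs (of 24082 genes named on the day 7 design and 27248 on the day 0 design), from 68 probes of 55681 and 90 of 56605. By class, 10 were fibrillar, 8 belonged to basement membranes and 25 were other collagens.

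Colon RNA of male germ-free (GF) mice on the C57BL/6J background was measured on 21 single-color Agilent arrays, 1 sample per array, from whole colon tissue. By their label, Card9-/- mice lack Card9, which encodes a signaling adaptor of myeloid cells, and mice labelled WT carry it. At day 7 of 2% dextran sodium sulfate (DSS) in the drinking water, which injures the colon epithelium, 4 arrays were labelled GF Card9-/- (replicates 2, 2.1, 4 and 6) and 4 GF WT (replicates 1, 4, 5 and 6). At day 0, before DSS, 7 were labelled GF Card9-/- and 6 GF WT. All groups share the germ-free state, and the labels give no age, litter or cage. The days lie on different array designs, so day and design cannot be told apart, and labels were compared only within a day. Differences below are always the mean of the arrays labelled GF Card9-/- minus that of the arrays labelled GF WT, on the log2 scale of quantile-normalized signal, and day 7 signals are listed in the order of replicates 2, 2.1, 4 and 6 (Card9-/- label) and 1, 4, 5 and 6 (WT label). The question is whether collagen transcripts differ with the Card9 label before and during colitis.

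Fibrillar collagens assemble into the banded fibers of the submucosa and are made mainly by fibroblasts. Type IV collagen forms the sheet on which epithelium, vessels and muscle cells rest, and types XV and XVIII join that sheet to the tissue below. Type VI makes beaded filaments around cells, type VII anchors the epithelial basement membrane to the stroma, and type XVII is a transmembrane protein of the hemidesmosomes of epithelial cells. FACIT collagens (fibril-associated with interrupted triple helices) sit on the surface of fibers. The matrix is laid down in the gut by fibroblasts and smooth muscle cells, and injury with repair is known to change it.

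On the day 7 arrays 42.2% to 57.1% of spots were well above background by the scanner software, and on the day 0 arrays 54.5% to 64.9%; the number of arrays limits the precision. Card9 itself went against the labels. Its day 0 probe had a log2 signal of 8.71 to 9.24 in the 7 arrays labelled GF Card9-/- and 2.30 to 2.33 in the 6 labelled GF WT. At day 7 these were 7.93 to 8.57 in 4 arrays and 2.38 to 2.41 in 3 arrays, while GF WT replicate 1 read 7.85. Arrays are therefore named by their deposited label, and every direction is that of the labels. Pancreas transcripts stood out in 3 arrays, with a marker score of 4.21 and 8.02 in GF Card9-/- replicates 2.1 and 6 at day 7 and 10.63 in GF Card9-/- replicate 7 at day 0, against −2.53 to −0.49 and −1.37 to 0.11 in the others of those days. A score is the mean over a list's genes of the log2 signal minus the gene's mean over the day's arrays. All 8 colon markers were well above background on some array at both days, but GF WT replicate 6 at day 0 scored −1.30 for them, where the other day 0 arrays scored −0.10 to 0.40.

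The 250 bases before the annotated start are shown for 6 genes, because at day 0 the signals of Col1a2, Col3a1, Col4a1 and Col6a1 ranged 12.4-fold to 17.0-fold over the arrays while those of Col7a1 and Col17a1 ranged 3.08-fold and 3.29-fold. The sequences are RefSeq's on GRCm38.p6, read 5′ to 3′ on the strand of the gene, and 34 of the 43 members had such an entry. Capitals mark the CCAAT box, the TATA box (spelled TATAAA) and the GC box (spelled GGGCGG), searched on both strands, so that a match on the other strand shows as the reverse complement.
Col1a2 (chr6:4505368-4505617, plus strand): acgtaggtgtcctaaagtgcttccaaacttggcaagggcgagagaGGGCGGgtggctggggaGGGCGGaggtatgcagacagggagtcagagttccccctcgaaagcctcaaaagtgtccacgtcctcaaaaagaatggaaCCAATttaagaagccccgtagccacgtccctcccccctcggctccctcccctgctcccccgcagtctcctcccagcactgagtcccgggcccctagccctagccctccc
Col3a1 (chr1:45311288-45311537, plus strand): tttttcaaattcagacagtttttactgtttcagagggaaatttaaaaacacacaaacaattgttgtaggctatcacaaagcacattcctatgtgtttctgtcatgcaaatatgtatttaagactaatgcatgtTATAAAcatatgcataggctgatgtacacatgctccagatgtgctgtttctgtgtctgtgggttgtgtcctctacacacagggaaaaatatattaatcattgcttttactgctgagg
Col4a1 (chr8:11312827-11313076, minus strand): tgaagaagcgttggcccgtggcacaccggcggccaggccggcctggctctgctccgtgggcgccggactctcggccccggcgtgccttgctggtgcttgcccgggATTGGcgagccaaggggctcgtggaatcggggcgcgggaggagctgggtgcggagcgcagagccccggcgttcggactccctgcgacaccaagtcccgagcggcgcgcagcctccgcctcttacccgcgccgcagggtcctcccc
Col6a1 (chr10:76726045-76726294, minus strand): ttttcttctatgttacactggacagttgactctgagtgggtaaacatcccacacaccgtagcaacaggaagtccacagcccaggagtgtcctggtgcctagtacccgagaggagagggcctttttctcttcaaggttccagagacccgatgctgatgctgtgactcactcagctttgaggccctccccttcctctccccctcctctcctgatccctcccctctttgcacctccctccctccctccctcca
Col7a1 (chr9:108953336-108953585, plus strand): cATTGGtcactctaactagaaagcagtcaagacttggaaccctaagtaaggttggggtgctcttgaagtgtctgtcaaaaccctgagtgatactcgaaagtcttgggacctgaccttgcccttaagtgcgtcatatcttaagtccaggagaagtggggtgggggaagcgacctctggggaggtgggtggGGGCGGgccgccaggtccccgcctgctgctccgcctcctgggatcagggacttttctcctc
Col17a1 (chr19:47692043-47692292, minus strand): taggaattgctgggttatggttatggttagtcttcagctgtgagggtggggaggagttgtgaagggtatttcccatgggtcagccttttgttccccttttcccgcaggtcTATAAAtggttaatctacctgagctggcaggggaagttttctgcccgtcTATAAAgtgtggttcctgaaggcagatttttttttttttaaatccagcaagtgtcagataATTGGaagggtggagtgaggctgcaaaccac
The Col1a2 window holds 1 CCAAT and 2 GGGCGG, that of Col3a1 holds 1 TATAAA, that of Col4a1 holds 1 CCAAT and that of Col6a1 holds none of these motifs. The Col4a1 window also contains the start of Col4a2, which runs the other way and begins 21 bases from that of Col4a1. The Col7a1 window holds 1 CCAAT and 1 GGGCGG, and that of Col17a1 holds 1 CCAAT and 2 TATAAA. The TATAAA matches begin 117 bases before the annotated start in Col3a1 and 140 and 91 bases before it in Col17a1. Those of CCAAT begin 109 (Col1a2), 145 (Col4a1), 249 (Col7a1) and 31 (Col17a1) bases before it. Of all 32851 windows of 250 bases in the table, 33.8% hold CCAAT, 12.4% hold TATAAA and 32.7% hold GGGCGG. None of these motifs is in the windows of all 4 genes with the wider ranges.

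At day 7 of DSS, none of the collagen genes passed the test for a difference between the labels. Of the 39 that were tested, 0 had an adjusted p under 0.05 in limma (lowest 0.913), and 0% of all 44643 probes tested had one. With unadjusted values under 0.05 there were 2 members (Col22a1 and Col25a1) higher and 0 lower, against 2.02% and 1.36% of all probes. The differences were below 0 for 26 members and above 0 for 13, where 49.6% of all probes were below 0. The brightest probes of Col6a5, Col9a3, Col17a1 and Col19a1 were not tested, because too few arrays detected them, and 21 members were well above background on every array. In whole tissue, fewer cells of a type and less RNA per cell cannot be told apart.

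The fibrillar class stood at a median log2 difference of −0.03 over 10 genes, 6 below and 4 above 0, beside 0.00129 over all probes. Col3a1 read 12.47, 12.19, 13.60 and 13.25 under the Card9-/- label and 12.80, 13.07, 14.51 and 12.87 under the WT label (chr1:45405589-45405648 on NCBI37). This chain of type III collagen, abundant in the gut wall, was brightest in GF WT replicate 5 and dimmest in GF Card9-/- replicate 2.1, and the labels overlapped (difference −0.43, SE 0.48, adjusted p = 0.913). Col1a2 read 14.17, 13.57, 14.68 and 14.78 under the Card9-/- label and 14.18, 14.31, 15.58 and 14.12 under the WT label, again with GF WT replicate 5 highest. Col1a2 encodes a chain of type I collagen, the main fiber of connective tissue, and its difference was −0.25 (SE 0.41; chr6:4490619-4490678). Without that array the differences were −0.03 for Col3a1 and 0.09 for Col1a2. For its partner chain Col1a1 (chr11:94813115-94813174) the labels averaged 11.73 ± 0.52 and 11.76 ± 0.44 (SD, n = 4 each), a difference of −0.03 (SE 0.32) that ran from −0.19 to 0.18 with single arrays left out. The cartilage collagen Col2a1 was dim throughout, with no day 7 array well above background. Over the class the score was −0.05 ± 0.53 under the Card9-/- label against 0.05 ± 0.42 under the WT label (SD, n = 4 and 4). Without GF WT replicate 5 the class median was 0.12, without GF Card9-/- replicate 2 it was 0.11 and without GF Card9-/- replicate 2.1 it was 0.08, so each of these arrays turned its sign.

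Basement membrane collagens had a median difference of −0.31 (7 of 8 below 0), and the 6 collagen IV chains alone had −0.31. Without GF Card9-/- replicate 2.1 the class median was −0.04. Col4a1 read 10.72, 10.26, 10.84 and 11.27 under the Card9-/- label and 10.26, 10.72, 12.41 and 10.96 under the WT label. Col4a1 and Col4a2 encode the chains of the common type IV network, lie head to head on chromosome 8 (chr8:11199009-11199068 and chr8:11448840-11448899) and differed by −0.32 and −0.38 (SE 0.46 and 0.45, adjusted p = 0.933 and 0.918). Without GF WT replicate 5, where both were highest, these were 0.12 and 0.04. Col4a4, a chain of a type IV network known from kidney, had the class's lowest difference, −0.49 (SE 0.21; −0.30 without GF Card9-/- replicate 2.1 and −0.11 with the authors' log2 values), but was well above background on 1 of 4 and 1 of 4 arrays. Col18a1 read 10.64, 11.52, 11.99 and 11.97 under the Card9-/- label and 10.68, 11.55, 11.40 and 11.30 under the WT label. Col18a1, whose C-terminal fragment is endostatin, was thus the class's only member above 0 (difference 0.30, SE 0.34, adjusted p = 0.918; chr10:76514926-76514985), with overlapping labels. With single arrays left out it was 0.11 to 0.59, but it turned to −0.35 with the slide as a fixed block and to −0.10 without the 3 arrays in doubt (GF WT replicate 1 and GF Card9-/- replicates 2.1 and 6). Its relative Col15a1 differed by −0.32 (SE 0.45), and this turned to 0.07 without GF Card9-/- replicate 2.1. The class score was −0.11 ± 0.52 under the Card9-/- label against 0.11 ± 0.28 under the WT label (SD, n = 4 and 4).

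Among the 21 other collagens tested, 13 were below 0 and 8 above, with a median of −0.05 and a score of −0.04 ± 0.28 under the Card9-/- label against 0.04 ± 0.41 under the WT label (SD, n = 4 and 4). Of the beaded filament chains, 5 of the 5 whose brightest probe was tested lay below 0 (median −0.40), while a dimmer tested probe of Col6a5 differed by 0.28. Col6a1 read 12.40, 12.15, 13.30 and 13.09 under the Card9-/- label and 12.69, 12.99, 14.31 and 12.54 under the WT label. This chain of the type VI filament (chr10:76171538-76171597) overlapped between the labels, and its difference was −0.40 (SE 0.45, adjusted p = 0.915). Without GF WT replicate 5 the difference was −0.00322 and that of Col6a6 turned to 0.16. Col6a4 differed by −0.59 (SE 0.44), by −0.29 without GF Card9-/- replicate 2.1 and by 0.22, the other way, without the 3 arrays in doubt. Col6a6 had the lowest difference of all members, −0.77, with an SE of 1.16 and 1 of 4 and 1 of 4 arrays well above background. Also among the lowest were the FACIT Col16a1 (−0.53, SE 0.35, and −0.26 without GF WT replicate 5) and the network-forming Col8a2 (−0.53, SE 0.52, and −0.09 without that array). Col16a1 read 11.84, 11.05, 12.23 and 11.91 under the Card9-/- label and 12.11, 12.01, 13.11 and 11.93 under the WT label.

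On the other side of 0, Col22a1 read 2.99, 3.66, 2.92 and 4.28 under the Card9-/- label and 2.51, 2.47, 2.48 and 2.47 under the WT label. Col22a1, a FACIT known from muscle-tendon junctions, was the only member whose labels did not overlap (1 higher and 0 lower, where 1.08% of all probes were higher and 1.05% lower without overlap). It did not pass the test (adjusted p = 0.913) and no array read it well above background, so no fold is given. With dim values raised to the dimmest probe well above background, the difference was 0.03. The transmembrane Col25a1 (3.69 ± 0.40 and 2.92 ± 0.58, SD) and Col28a1 (3.93 ± 0.43 and 3.22 ± 0.64) likewise read well above background on none of the arrays, and their differences with dim values raised were 0.02 and 0.12. The other tested probes of Col25a1 differed by −0.20 and 0.25, beside 0.77 for its brightest. Col7a1, the collagen of anchoring fibrils, was well above background on all 8 arrays, and it read 7.16, 6.90, 7.64 and 8.28 against 7.73, 7.01, 7.29 and 7.07 (difference 0.22, SE 0.32; chr9:108886861-108886920). Without GF Card9-/- replicate 6, an array with pancreas transcripts, the difference turned to −0.04. The day 7 probe of Col17a1 reached background level only, at 2.65 to 2.78 throughout. The plot of day 7 signals shows these genes.

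**Figure D1:**
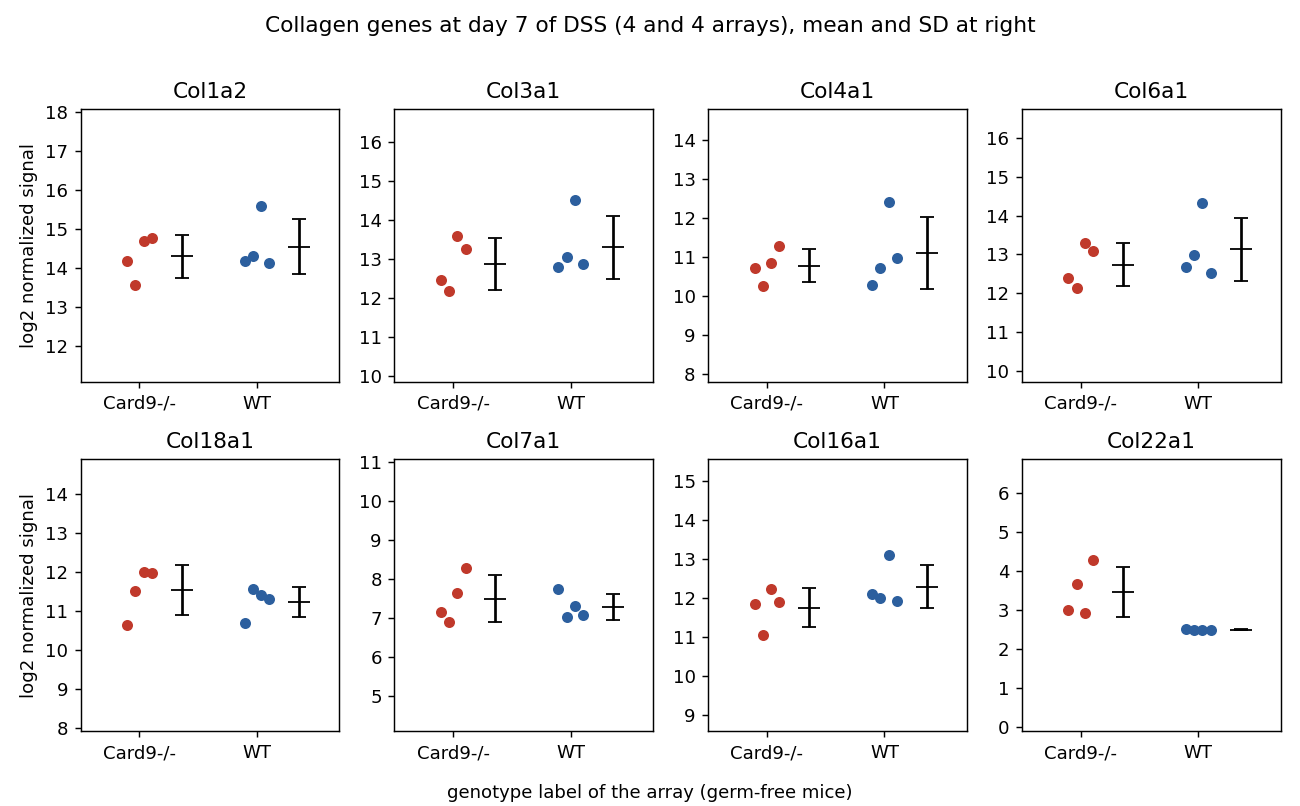
Log2 normalized signal of 8 collagen genes at day 7 of DSS, 1 dot per array, by the genotype label of the array (4 and 4), with the mean and SD beside the dots and the same height of axis for every gene. GF WT replicate 5 is the highest dot for Col1a2 (15.58), Col3a1 (14.51), Col4a1 (12.41), Col6a1 (14.31) and Col16a1 (13.11), and Col22a1 alone does not overlap between the labels.

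At day 0, before DSS, most collagen genes read lower in the arrays labelled GF Card9-/-, but none passed the test, and the signals ranged widely within each label. Differences were below 0 for 30 of the 41 members tested, where 43.0% of all 47410 probes were, and the median was −0.30 beside 0.02 over all probes. In limma 0 members had an adjusted p under 0.05, against 0.0253% of all probes, with a lowest adjusted p of 0.912. Even at an unadjusted p under 0.05 there were 0 higher and 0 lower, against 3.89% and 1.95% of all probes. The labels overlapped for every member, while 0.141% of all probes were without overlap and lower and 0.316% without overlap and higher. Col6a6 and Col10a1 were not tested, and 25 members were well above background on every array.

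For the fibrillar class the median difference was −0.86, with 9 of 10 genes below 0. Col3a1 had a lowest, median and highest log2 signal of 11.56, 13.62 and 14.75 in the 7 arrays labelled GF Card9-/- and of 12.63, 14.83 and 15.19 in the 6 labelled GF WT (chr1:45405589-45405648). The label ranges overlapped, although GF WT replicates 1 to 4 lay at 14.68 to 15.19 and only GF Card9-/- replicate 1 reached that height (14.75). GF WT replicates 5 and 6 lay at 12.63 and 13.17, and GF Card9-/- replicate 5 was lowest. The difference was −0.92 (SE 0.58, adjusted p = 0.912). In the same order, Col1a1 gave 10.16, 12.14 and 13.40 against 11.29, 13.63 and 14.05 (chr11:94813075-94813134), a difference of −1.06 (SE 0.62). Its partner chain Col1a2 gave 12.20, 14.47 and 15.66 against 13.01, 15.68 and 16.03, a difference of −0.84 (SE 0.66) that was −0.51 without GF Card9-/- replicate 5. The lowest fitted difference belonged to Col24a1, a minor fibrillar chain, at −1.46 (SE 0.86), with values of 2.61, 4.66 and 5.69 against 2.64, 5.74 and 8.93. Its probe was well above background on 3 of 7 and 5 of 6 arrays, so the size rests partly on background-level values. Its highest value was that of GF WT replicate 6, without which the difference was −0.83, and without the whole slide of that array it was −0.20. Col2a1, Col5a2 and Col5a3 differed by −0.87, −0.79 and −0.88, Col11a1 by −0.30, Col27a1 by −0.17 and Col11a2 by 0.06. The class score was −0.33 ± 0.80 under the Card9-/- label against 0.39 ± 0.76 under the WT label (SD, n = 7 and 6).

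Basement membrane collagens gave the same picture, with a median of −0.81 and 7 of 8 below 0. Col4a1 had a lowest, median and highest log2 signal of 9.03, 11.25 and 12.57 in the 7 arrays labelled GF Card9-/- and of 10.37, 12.58 and 13.12 in the 6 labelled GF WT, a difference of −0.96 (SE 0.64, adjusted p = 0.912). Its head-to-head neighbour Col4a2 gave 8.57, 10.80 and 12.11 against 10.01, 11.94 and 12.71 and differed by −0.89 (SE 0.61). Without GF Card9-/- replicate 5 these were −0.62 and −0.55. The annotated starts of this pair lie 21 bases apart in RefSeq. The X-linked pair Col4a5 and Col4a6, which is also arranged head to head, differed by −0.71 and −0.83 (SE 0.50 and 0.59). Col4a4 differed by −0.49, and Col4a3 was dim, with no array well above background. Col18a1 gave 9.27, 11.10 and 11.80 against 10.33, 11.86 and 12.29, a difference of −0.78 (SE 0.45; chr10:76515820-76515879). Col15a1 gave 2.39, 5.40 and 5.87 against 4.81, 5.92 and 6.80, a difference of −0.86 (SE 0.54), and its lowest value was that of GF Card9-/- replicate 5. It was well above background on 5 of 7 and 4 of 6 arrays, and the difference was −0.42 without replicate 5 and −0.30 with normexp background correction. The class score was −0.32 ± 0.77 under the Card9-/- label against 0.37 ± 0.83 under the WT label (SD, n = 7 and 6).

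The other collagens divided. Their median was −0.10, with 14 below and 9 above 0, and a score of −0.10 ± 0.44 under the Card9-/- label against 0.12 ± 0.36 under the WT label (SD, n = 7 and 6). Of the type VI chains, Col6a1 to Col6a4 lay near the fibrillar median, Col6a5 did not and Col6a6 was not tested. Col6a1 had a lowest, median and highest log2 signal of 10.94, 13.25 and 14.27 in the 7 arrays labelled GF Card9-/- and of 11.78, 14.13 and 14.71 in the 6 labelled GF WT, a difference of −0.77 (SE 0.62) that was −0.46 without GF Card9-/- replicate 5. Col6a2, Col6a3 and Col6a4 differed by −0.85, −0.89 and −1.02 (SE 0.60, 0.66 and 0.65), and Col6a5 by −0.10, with its other probes above 0. The FACIT collagen Col12a1 differed by −0.82, and the rest of that subgroup by −0.27 (Col20a1) to 0.10 (Col22a1) where well above background on some array.

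Some other collagens had narrower ranges. Col17a1 had a lowest, median and highest log2 signal of 9.69, 9.99 and 10.32 in the 7 arrays labelled GF Card9-/- and of 8.81, 9.55 and 10.53 in the 6 labelled GF WT (chr19:47721454-47721513), the largest difference above 0 among the members at 0.33 (SE 0.27, adjusted p = 0.912), with overlapping labels and 0.15 without GF WT replicate 2. GF WT replicates 5 and 6, low for Col3a1, were the highest of all arrays for Col17a1 (10.53 and 10.52). Col7a1 gave 7.42, 7.58 and 9.04 against 7.64, 7.77 and 7.95 and differed by 0.03 (SE 0.23), and its high value was that of GF Card9-/- replicate 7, the day 0 array with pancreas transcripts, without which the difference turned to −0.18. Whether pancreas transcripts have a part in it was not tested. Col8a1, which forms hexagonal networks, gave 12.43, 12.99 and 13.31 against 11.32, 13.07 and 13.45 and differed by 0.10 (SE 0.30), and its low value was that of GF WT replicate 6, the array with the low colon markers, whose part was not tested either. Without that array the difference turned to −0.21. The related Col8a2 gave 4.98, 6.19 and 7.46 against 5.93, 6.84 and 7.29 and differed by −0.51 (SE 0.40), with 5 of 7 and 6 of 6 arrays well above background. Col22a1 differed by 0.10, which turned to −0.04 without GF Card9-/- replicate 5, and Col25a1 by 0.21 (0.09 to 0.31 with single arrays left out). Col9a3 was above 0 but well above background on none of the arrays (3.48 ± 0.85 and 3.30 ± 0.38, SD).

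**Figure D2:**
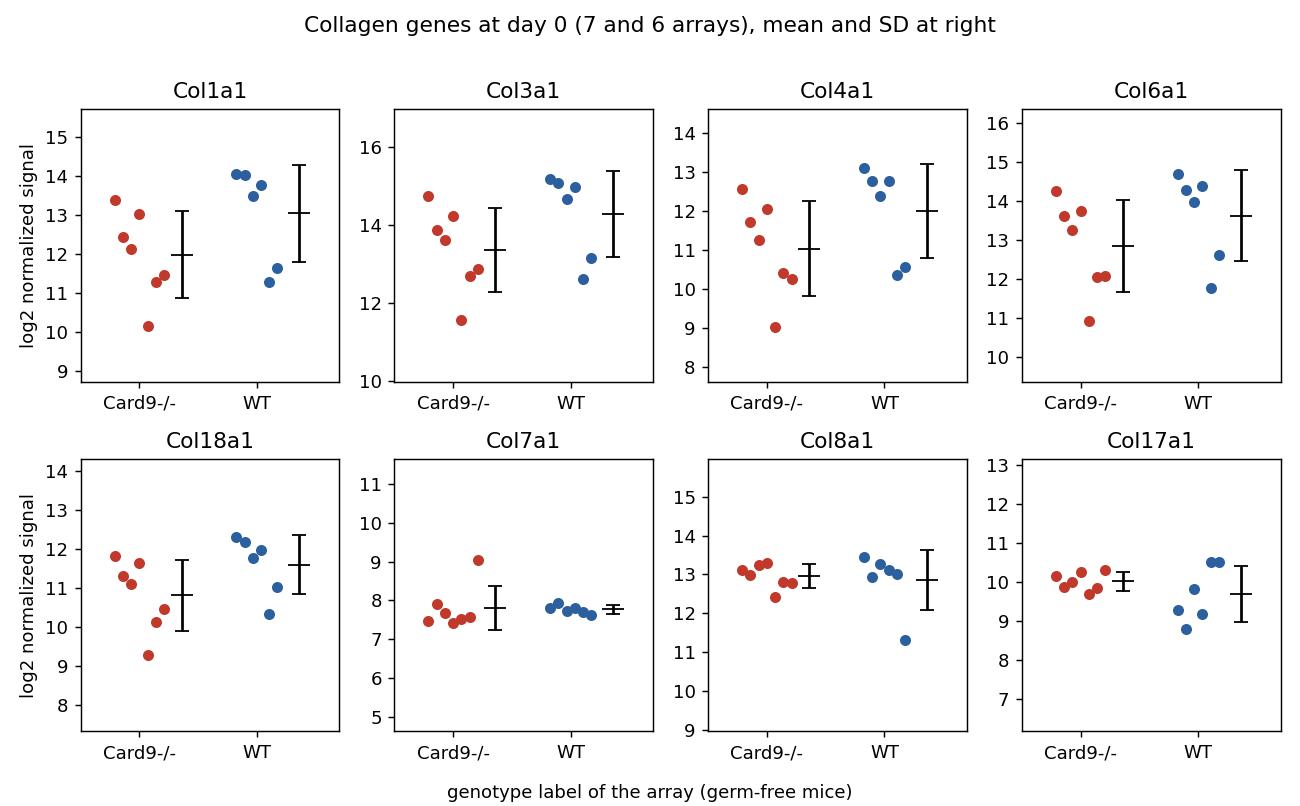
Log2 normalized signal of 8 collagen genes at day 0, 1 dot per array in replicate order, by the genotype label of the array (7 and 6), with the mean and SD beside the dots and the same height of axis for every gene. Col1a1, Col3a1, Col4a1, Col6a1 and Col18a1 spread over more than 3 log2 units with overlapping labels, while Col7a1, Col8a1 and Col17a1 spread over 1.62, 2.13 and 1.72, with 1 array apart from the rest of its label for Col7a1 (9.04) and for Col8a1 (11.32).

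**Figure D3:**
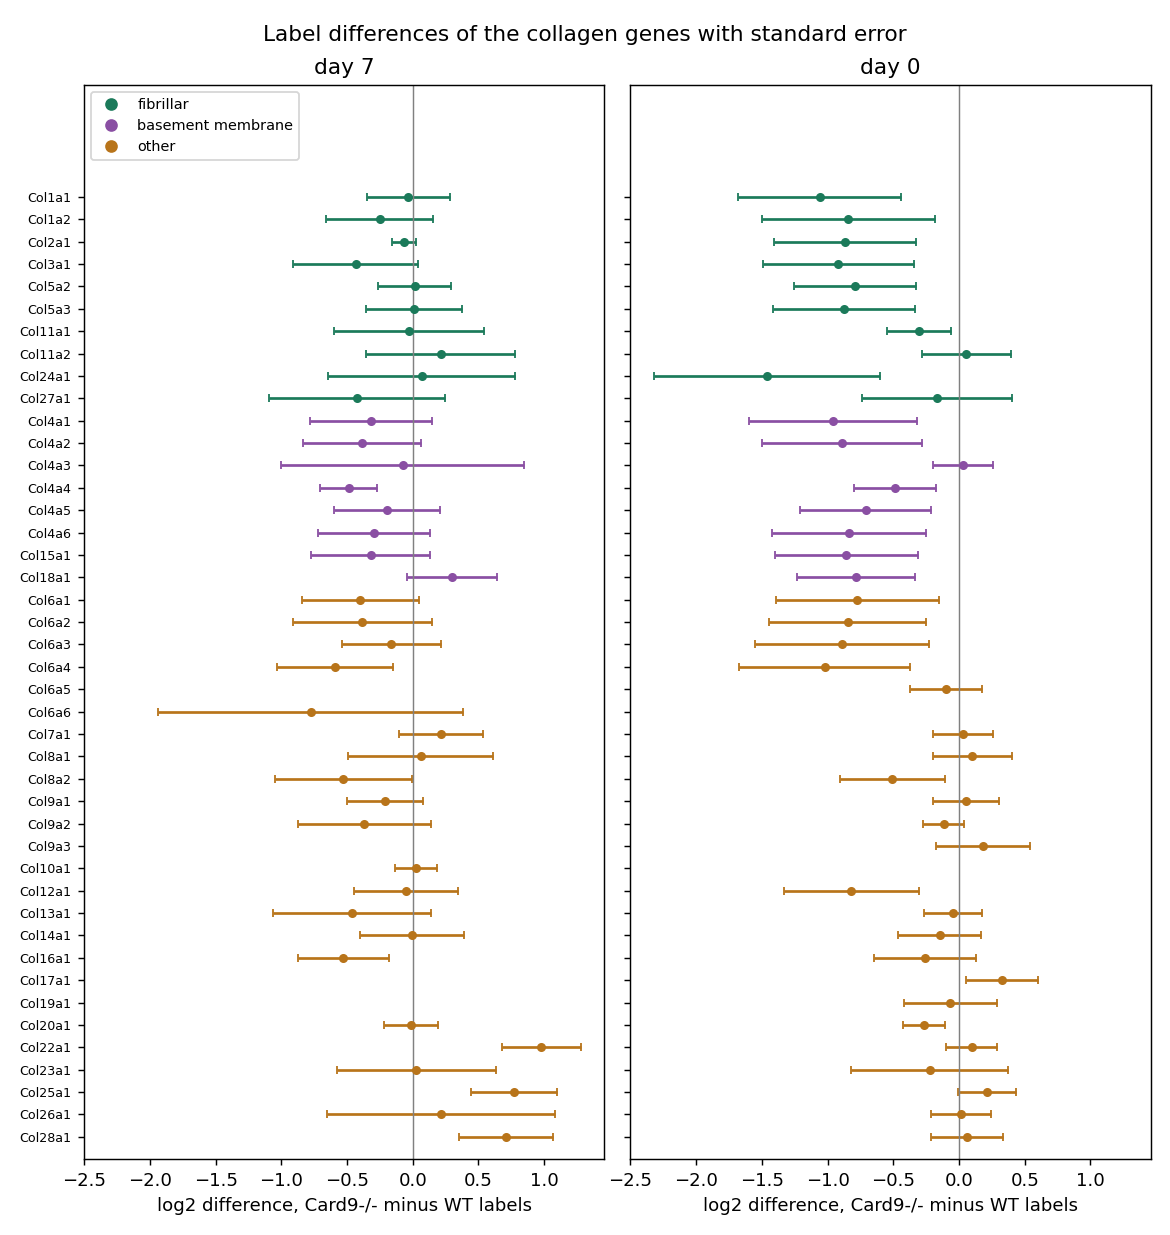
Label difference (Card9-/- minus WT, log2 scale) of every collagen gene tested, with its standard error from limma, at day 7 (39 genes) and day 0 (41 genes), colored by class, with the rows of untested genes blank. At day 0 the fibrillar and basement membrane classes have medians of −0.86 and −0.81, and none of the differences passed the test at either day.

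The spread between arrays of one label was wider for collagens than for most genes. Of the 25 members well above background on every day 0 array, 17 had a within-label SD above 0.689, a value that 5% of the 28235 probes of that kind exceed. The median SD was 1.02 for these members and 0.211 for those probes. At day 7 the medians were 0.618 and 0.283, and 3 of 21 members were above the value (0.739) that 5% of 21142 probes exceed. The extremes fell mostly in a few arrays. At day 0, GF Card9-/- replicate 5 was lowest for 17 and GF WT replicate 1 highest for 18 of the 25. Between these arrays Col1a1 differed 14.9-fold, Col4a1 17.0-fold and Col3a1 12.4-fold. Of the day 0 arrays, they also had the lowest (54.5%) and highest (64.9%) share of spots well above background. Next lowest in that share (57.5% to 59.6%) were GF Card9-/- replicates 6 and 7 and GF WT replicates 5 and 6. These scored −0.71 to −0.30 over all collagens, where the arrays with larger shares scored −0.14 to 0.77. The part of this share in the spread was not tested. At day 7, GF Card9-/- replicate 2.1 was lowest for 13 and GF WT replicate 5 highest for 12 of 21, and Col3a1 differed 5.00-fold between them. Their shares of spots well above background were 48.5% and 47.0%, inside the range of that day (42.2% to 57.1%). The members of the 25 below the day 0 value were Col7a1, Col8a1, Col9a2, Col13a1, Col17a1, Col20a1, Col22a1 and Col26a1, of which Col7a1 and Col17a1 still had a larger SD than 87.4% and 91.4% of those probes.

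The day 0 array lowest for the collagens was also lowest for markers of stromal cells. The 8 fibroblast markers, all well above background on some array at day 0, scored −2.00 to 0.64 in the arrays labelled GF Card9-/- and −0.93 to 0.85 in those labelled GF WT, with 8 of 8 differences below 0 and a median of −0.60. For the 8 smooth muscle markers these were −2.10 to 1.47 and −1.21 to 1.25, 8 of 8 below 0, median −0.45. The lowest array of both lists was GF Card9-/- replicate 5, as for all 3 collagen classes, and GF Card9-/- replicate 1 scored 1.47 for smooth muscle and 0.66 for fibrillar collagens. Not every array ran alike in these lists. GF WT replicate 6 scored −1.21 for smooth muscle and −0.01 for fibrillar collagens, and GF Card9-/- replicate 6 scored −0.07 for fibroblast markers and −1.06 for fibrillar collagens. The 8 endothelium markers were also below 0 in 8 of 8 (median −0.38). The 8 epithelium markers scored −0.05 to 0.16 and −0.33 to 0.23 (median difference 0.04). At day 7, 8 of 8 smooth muscle markers were below 0 (median −0.45), and their score was −1.45 in GF Card9-/- replicate 2.1 and 1.14 in GF WT replicate 5, which scored −0.66 and 0.64 for fibrillar collagens. Of the fibroblast markers 6 of 8 were below 0 at day 7 (median −0.08). Their score was −0.04 in GF Card9-/- replicate 2.1 and 1.08 in GF WT replicate 5, and the lowest under the Card9-/- label was −0.50 in replicate 2. In GF WT replicate 1 smooth muscle was at −1.14 and fibroblast markers at −0.63, with fibrillar, other and basement membrane collagens at −0.33, −0.38 and 0.07. Adipocyte markers also set these arrays apart, with a score of −4.93 in GF Card9-/- replicate 5 at day 0, where the other arrays scored −0.77 to 2.35, and of 1.58 in GF Card9-/- replicate 2.1 and −1.62 in GF WT replicate 5 at day 7. The median difference of the 8 adipocyte markers was −0.16 at day 0 and 1.23 at day 7. The part of stromal and fat cell numbers in the collagen differences was not tested. The plot of scores sets the lists side by side.

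**Figure D4:**
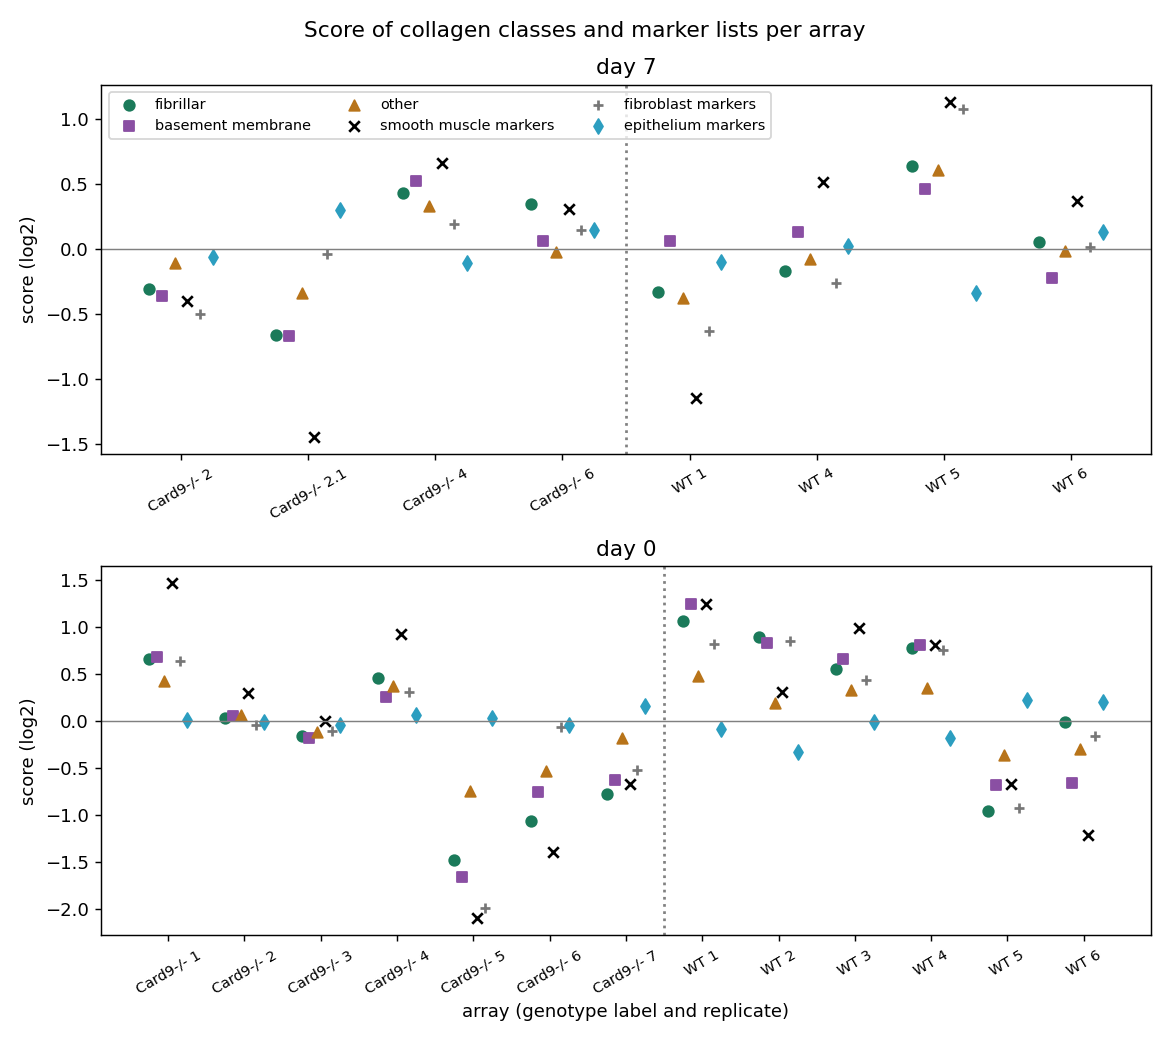
Score of each array (mean over a list's genes of log2 signal minus the gene's mean over the day's arrays) for the 3 collagen classes and for smooth muscle, fibroblast and epithelium markers, at day 7 (8 arrays) and day 0 (13 arrays), with the labels divided by the dotted line. At day 0 the collagen classes and both stromal lists are lowest in GF Card9-/- replicate 5 (fibrillar score −1.48, smooth muscle −2.10) and the epithelium markers stay between −0.33 and 0.23.

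The day 0 arrays lay on 4 slides that each held both labels, and the difference varied between them. Within the slide of GF Card9-/- replicate 7 and GF WT replicate 1 (1 array each) the median difference was −2.25 for fibrillar and −2.03 for basement membrane collagens. On the slides with 2 arrays per label, it was −0.14 and −0.03 on one and −0.24 and −0.25 on the other. On the remaining slide (GF Card9-/- replicates 5 and 6 with GF WT replicate 6) it was −0.98 and −0.75. Within the scan sessions it was −0.75 and −0.91 for fibrillar collagens. At day 7 only 2 slides held both labels, 1 array each, with −0.27 and −0.58 for fibrillar and −0.24 and −0.83 for basement membrane collagens. Without GF Card9-/- replicate 5, the day 0 medians were −0.55 and −0.53. With the arrays in doubt left out (GF Card9-/- replicate 7 and GF WT replicate 6) they were −0.95 and −0.95, again with 0 collagens past the threshold. Leaving out GF WT replicate 1 and GF Card9-/- replicates 2.1 and 6 at day 7 gave −0.12 and −0.14, with 0 past it.

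Genes that process, bind or accompany collagens were described from 5 lists, in which 0 members passed the threshold at either day. At day 0 most of them were below 0. Of the enzymes and chaperones that fold and modify the chains, 14 of 18 were below 0 (median −0.14), from Fkbp10 at −0.72 and Colgalt2 at −0.62 to Mia3, which exports procollagen, at 0.04 and the prolyl hydroxylase P4ha1 at 0.26. In the list for trimming and cross-linking, 12 of 14 were below 0 (median −0.58), led by the cross-linking oxidases Lox (−1.12, SE 0.62) and Loxl3 (−0.95), with Tll1 at 0.10 at the other end and Adamts3 above 0 but well above background on no array. Among receptors 8 of 10 were below 0 (median −0.28), from the integrin Itga11 (−0.87) and the kinase Ddr2 (−0.51) to Itga2 (0.08) and Gp6 (0.18). Fibril partners had 11 of 12 below 0 (median −0.58), among them Thbs2 (−1.17) and Postn (−0.91), with the proteoglycans Dcn at −0.23 and Fmod at 0.39. Of the basement membrane partners 15 of 15 were below 0 (median −0.56), from the laminin chains Lama2 (−0.98) and Lamb1 (−0.79) to Lama3 (−0.01).

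At day 7 the medians of these lists were close to that of all probes, at −0.04, 0.03, −0.03, −0.06 and −0.08 in the same order. In folding and modification the ends were P3h3 (−0.59) and Plod2 (−0.59) against P3h1 (0.48) and Colgalt2 (0.61). For trimming and cross-linking they were Loxl1 (−0.35) and Loxl2 (−0.27) against Tll1 (0.54) and Pcolce2 (0.56). Receptors ran from the collagen-binding integrins Itga1 (−0.60) and Itga11 (−0.40) to Itga2 (0.35) and the uptake receptor Mrc2 (0.49). Fibril partners ran from Postn (−0.68) and Tnxb (−0.63) to Tnc (0.30) and Fmod (0.75). Basement membrane partners ran from Lamb2 (−0.44) and Lama2 (−0.38) to Lamb3 (0.15) and Agrn (0.26).

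A change of the label difference from day 0 to day 7 could be tested for 23633 probes shared by the designs. Of the 29 collagen genes among them, 0 had an adjusted p under 0.05 (lowest 0.811, limma), as had 0% of all these probes, and 0 reached an unadjusted p under 0.05, where 7.14% of the probes did. The day 7 difference minus the day 0 difference was above 0 for 21 of them, with a median of 0.49 and a range of −0.82 (Col14a1) to 1.53 (Col24a1). For Col3a1 it was 0.49 (SE 0.84), for Col4a1 0.64 (SE 0.92) and for Col6a1 0.38 (SE 0.89). The shared probe was not the brightest on one or both designs for Col1a1, Col6a4, Col6a5, Col13a1, Col14a1, Col25a1 and Col26a1. A change of the label difference between the days was thus not detectable with these arrays.

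Further probes of the same genes gave mostly the same sign. At day 7, 14 of 17 tested probes of 13 members shared the sign of the brightest probe, and at day 0 27 of 36 probes of 23 members did. The other day 0 probes of Col1a1 gave −1.19 and −1.05 and those of Col3a1 −0.77 and −0.65. For Col12a1 the brightest day 0 probe gave −0.82 and the others −0.73 and 0.0087, and for Col26a1 the brightest gave 0.02 and the others −0.85 and −0.67.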

How the data were processed

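Colon RNA was hybridized to 21 arrays (8 at day 7, 13 at day 0). The authors scanned them with Agilent Feature Extraction 10.7.3.1 (submitters' processing notes), which gave the deposited intensity values, linear and unscaled across arrays. Each spot's deposited p-value tests it against its background, and the deposited flags (a score of 0 or 1 per spot) mark outliers and spots well above background. The authors also deposited log2 values per probe, whose rank order on each array equals that of the median spot signal without background subtraction, used here as an alternative.

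Processed signals, from which the software had subtracted background, were put on the log2 scale, and quantile normalization was run within each day. Control spots and outlier spots were left out, and repeated spots were averaged. Tests covered probes detected (p-value below 0.05 for 50% or more of the spots) on 60% or more of one label's arrays and with 2 values or more per label. No array had a saturated spot, so high signals were not clipped. Labels were compared with limma 3.58.1 (lmFit and eBayes, R 4.3.3, statmod 1.5.0) and Benjamini-Hochberg adjustment over all tested probes of a day. In simulated data with 100 probes changed by 2 log2 units, 54% were recovered at day 7 and 90% at day 0. The changed probes were drawn from all tested probes, whose median within-label SD was 0.408 at day 7 and 0.291 at day 0. For collagens well above background on every array it was 0.618 and 1.02, so these shares do not give the recovery of collagens, which was not simulated. The joint fit over both days compared the label differences. Nothing states that arrays of a label came from separate cages or litters, so p-values measure the spread between these samples. Replicates 2 and 2.1 differed by an SD of 0.852 (median of other day 7 pairs of one label 0.907) and were counted as 2 samples.

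The members and lists were chosen with earlier results of these data known, and 1 gene of the family is not reported here. Genes named are 10 chosen by role (Col1a1, Col1a2, Col3a1, Col4a1, Col4a2, Col6a1, Col7a1, Col15a1, Col17a1 and Col18a1), per day the 5 largest differences each way, members past the threshold or without overlap, and of partner lists the 2 largest each way. The other genes named give the members of a class or are examples chosen after their values were seen. Marker lists not described in the text were those of mesothelium (median difference 0.40 at day 7 and 0.79 at day 0), leukocytes (0.26 and −0.03) and enteric glia and Schwann cells (−0.07 and −0.09). Probe positions are those of the deposited annotation (NCBI37); exon or untranslated part was not assigned. Alternatives were other scalings, backgrounds, filters, probes, blocks and left-out arrays.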

Additional observations from a re-analysis of the deposited data

Results flagged for a closer look

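Single arrays were set against the other arrays of their label and day by the gap to the nearest of them over the whole range. Of 78 groups of values (named genes and class scores), 7 had 1 array far from the rest. By chance about 1 group in 20 would, but the groups share arrays and are not independent, so the count of 7 is not a test.

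At day 7, GF WT replicate 5 was high for Col1a2 (log2 signal 15.58, the others at 14.12 to 14.31), for Col3a1 (14.51, the others at 12.80 to 13.07) and for Col16a1 (13.11, the others at 11.93 to 12.11). This array also had the highest fibroblast marker score of day 7, 1.08, whose part in these values was not tested. GF WT replicate 6 was high for Col25a1 (3.79, the others at 2.62 to 2.64), a probe not well above background on any day 7 array.

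At day 0, GF Card9-/- replicate 5 was low for Col15a1 (2.39, the others at 5.05 to 5.87), the array lowest for 22 of the 41 members tested at that day. GF Card9-/- replicate 7 was high for Col7a1 (9.04, the others at 7.42 to 7.91), and without it the Col7a1 difference was −0.18. GF WT replicate 6 was low for Col8a1 (11.32, the others at 12.93 to 13.45), and without it the Col8a1 difference was −0.21.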

How the results depend on the processing

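The count of collagen genes past the threshold was 0 at both days and in the comparison of the days under every alternative tried, left-out arrays included. The day 0 medians were below 0 under every alternative. With single arrays left out they ran from −1.19 to −0.55 for fibrillar, −1.05 to −0.53 for basement membrane and −0.16 to −0.04 for other collagens. At day 7 these ranges were −0.23 to 0.12, −0.49 to −0.04 and −0.30 to 0.09, and the replicate block below turned the basement membrane median too, so none of the 3 medians of day 7 has a settled sign. Arrays of one number did not deviate together throughout (correlation of their deviations over genes −0.02 to 0.37 at day 0, 0.11 and 0.03 at day 7, and not every array correlated best with its own number), so the numbers were not taken as pairs. With the replicate number as a block, 0 collagens passed at either day. In that fit the day 7 medians rested on replicates 4 and 6 and were 0.48, 0.38 and 0.28 for the 3 classes, and the day 0 medians were −0.75, −0.72 and −0.15. With the slide as a fixed block, the day 7 medians were −0.34, −0.54 and −0.35. For single genes, 38 of 732 alternative values had the other sign and none crossed the threshold. At day 7 Col18a1 read −0.35 and Col6a6 1.39 in that fit, the causes of which were not tested. Leaving out the arrays in doubt was chosen after seeing the data. Signal near background limits what can be said of dim members: at day 7, 21 of 43 were well above background on every array.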
